A study of Mus musculus with 4 samples.

Results

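This account describes 30 genes of the PI3K, mTOR and FOXO pathway, chosen by symbol from a table of 27179 genes, in regulatory T cells (Treg cells) with and without RelA. All 30 symbols were found, and each had 1 row. The list holds PI3K subunits, the antagonists of PI3K signalling, AKT and related kinases, the mTOR complexes with their substrates and inhibitors, and FOXO factors. RNA was sequenced from CD4+Foxp3+ Treg cells, which hold other immune cells in check. They were taken, at steady state, from the spleen together with peripheral lymph nodes, and the mice were C57BL/6. The series has 2 libraries labelled WT and 2 labelled P65KO, the latter deficient in RelA (p65), a DNA-binding subunit of NF-kB. Neither the deleting allele, nor a Cre driver, nor the age, sex or number of the mice is given in the sources used here. Whether libraries of a group came from separate mice is not given either, so p-values rest on library-to-library spread alone, and that spread may be technical.

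Class I PI3K makes a membrane lipid when antigen, costimulatory or cytokine receptors are engaged, and that lipid recruits the kinases PDK1 and AKT. AKT relieves the TSC block on Rheb and so turns on mTOR complex 1, which drives protein synthesis, while mTOR complex 2 phosphorylates AKT in return. AKT also phosphorylates FOXO factors and sends them out of the nucleus, which silences genes of quiescence and lymph node homing. In Treg cells the pathway is known to be held low: strong PI3K and mTOR activity destabilises them, FOXO factors support Foxp3 expression, and some mTOR activity is still needed for their function. Most of this control acts on proteins, by phosphorylation, which transcript levels do not measure.

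The libraries held 4513863 to 4624230 counts, and Foxp3, Cd4 and Cd3e were abundant in each. Foxp3 stood at 377 and 371 CPM (counts relative to the library total, scaled by TMM, a correction for library composition) in WT against 386 and 528 CPM in P65KO. Of the 8 Treg and CD4 T cell markers listed, 1 passed as higher, 3 as lower and 4 did not pass. Their summed level was 5559 and 5579 CPM in WT against 4739 and 5090 in P65KO. The label P65KO could not be checked against whole-gene counts of Rela, since exons outside a deleted part still count. Genotype cannot be told apart from a sex-linked difference: Xist had 494 and 608 counts in WT against 0 and 2 in P65KO, and Ddx3y 0 and 0 against 302 and 404. Effector Treg markers passed the test as lower in 10 of 10 genes, and their summed level was 1791 and 1811 CPM in WT against 249 and 226 in P65KO. Naive and central markers passed as higher in 10 of 10, from 3385 and 3076 to 5900 and 6225 CPM. Over all genes tested, 11.7% passed as lower and 9.00% as higher. The marker lists were chosen with earlier results of these data known, so counts of 10 of 10 are a description and not a test. Myeloid and dendritic markers passed as higher in 11 of 14 tested, with sums of 885 and 1000.2 CPM in WT and of 2073 and 1126 in P65KO. P65KO replicate 1 carried the most of these transcripts. Cd14 and Siglech were at or near 0, with 0 to 4 counts in any library, while Itgax went from 19 and 35 counts to 427 and 219. Erythroid markers passed in 4 of 4 tested, from sums of 21.3 and 27.8 CPM to 105 and 192. B cell markers passed as lower in 2 of 2 tested, Cd79b and Cd22, and the summed level of the 8 listed was 49.5 and 52.7 CPM in WT against 24.9 and 15.5 in P65KO. Among the defining ones, Pax5 and Ebf1 had 0 counts in every library. In bulk RNA, a change in the share of cells of one kind and a change in RNA per cell cannot be told apart, and the part of these other transcripts in the results below was not tested.

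Of 29 members that could be tested, 6 were higher in P65KO (Pik3r5, Pik3cb, Pik3ip1, Pik3cd, Foxo1 and Rictor), 2 were lower (Phlpp1 and Pik3ca) and 21 did not pass. A gene passed where the quasi-likelihood test of edgeR gave an adjusted p under 0.05 over all genes. These 8 members make 27.6% of those tested, against 20.7% of all 11172 genes, so the share of both directions together was near the background. By direction, 6 of 29 members passed as higher against 9.00% of all genes, and 2 of 29 as lower against 11.7%. An unadjusted edgeR p under 0.05 was found for 48.3% of the members tested and for 32.6% of all genes. Members were chosen with earlier results of these data known, and these shares were not tested. The median log2 difference (P65KO minus WT) was 0.09 over the members and 0.00 over all genes tested. Groups did not overlap in CPM for 20 of the 29 members tested, 14 above and 6 below WT. Over all 11172 genes the groups did not overlap for 60.5%, with 3314 genes above and 3448 below WT. No tested member differed by more than 2-fold: the log2 differences ran from -0.76 for Phlpp1 to 0.96 for Pik3r5, and 16 of 29 lay within 0.25 of 0. With each library left out in turn, 3 to 4 members passed as higher and 0 to 2 as lower. Without P65KO replicate 1, the library richest in myeloid transcripts, 4 passed as higher and 2 as lower.

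**Figure D1:**
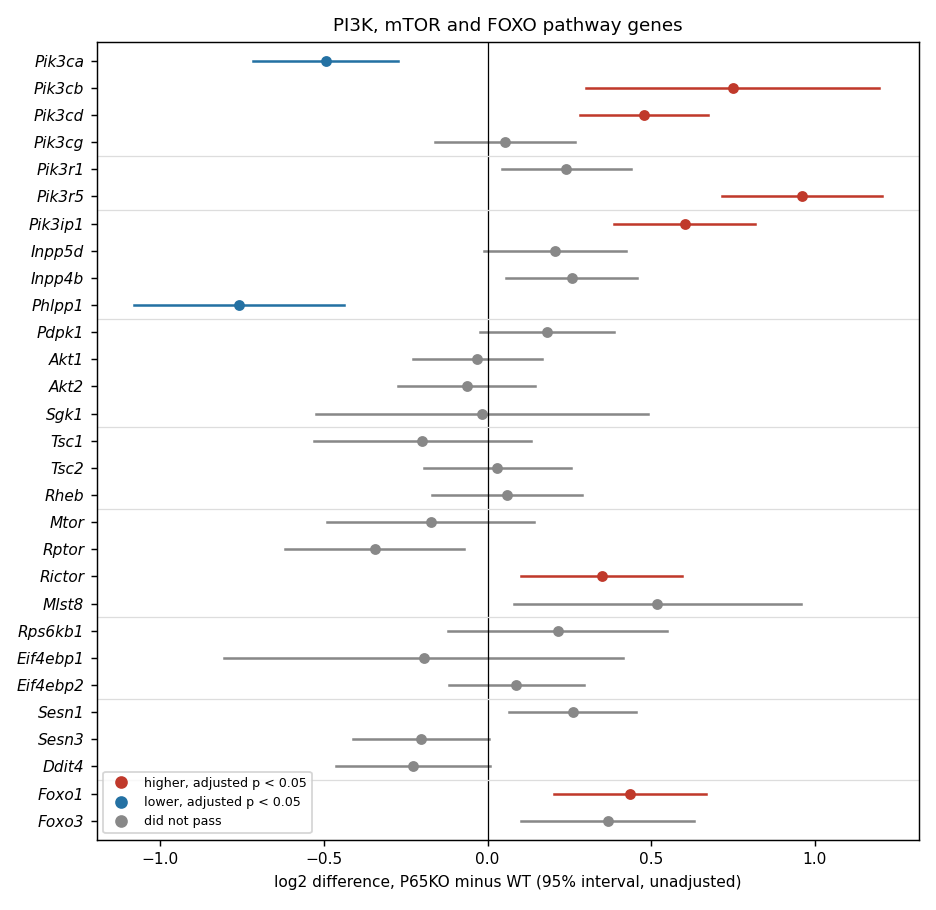
Log2 difference, P65KO minus WT, of the 29 members tested (points) with unadjusted 95% intervals (lines), in blocks by role. The 6 genes in red and the 2 in blue passed the threshold, and the 4 kinases Pdpk1, Akt1, Akt2 and Sgk1 and the TSC and Rheb genes did not.

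Expressed per length, as the authors' RPKM (counts per kilobase of length and per total counts of the library), the members spanned a wide range. The length used is not the genomic span of the gene: for Pik3ca it was 8917 bases. Ddit4 stood highest, with a mean of 189 RPKM over the 4 libraries, followed by Eif4ebp2 at 131, Pik3cd at 89.0 and Foxo1 at 86.1 RPKM. Pik3cd and Foxo1 overlapped between libraries (75.9 to 106 and 68.0 to 104 RPKM), so their order is not resolved. Inpp4b, Sesn1, Inpp5d, Sesn3 and Akt2 lay close together, with means of 52.9 to 57.3 RPKM and library values that overlap, so their order is not resolved either. The giant kinase gene Mtor itself was low, at 3.79 to 4.94 RPKM, as were Tsc1, Rps6kb1 and Pik3cb. Deptor, an mTOR inhibitor, was nearly absent: its counts were 0 and 1 in WT against 11 and 4 in P65KO, too few for the test. Its RPKM in WT replicate 1 comes only from the 0.5 that the authors' scale adds to each count. The ratio of its summed counts, P65KO to WT, was 15.3 with an exact 95% binomial interval of 2.36 to 646, which covers counting error only.

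**Figure D2:**
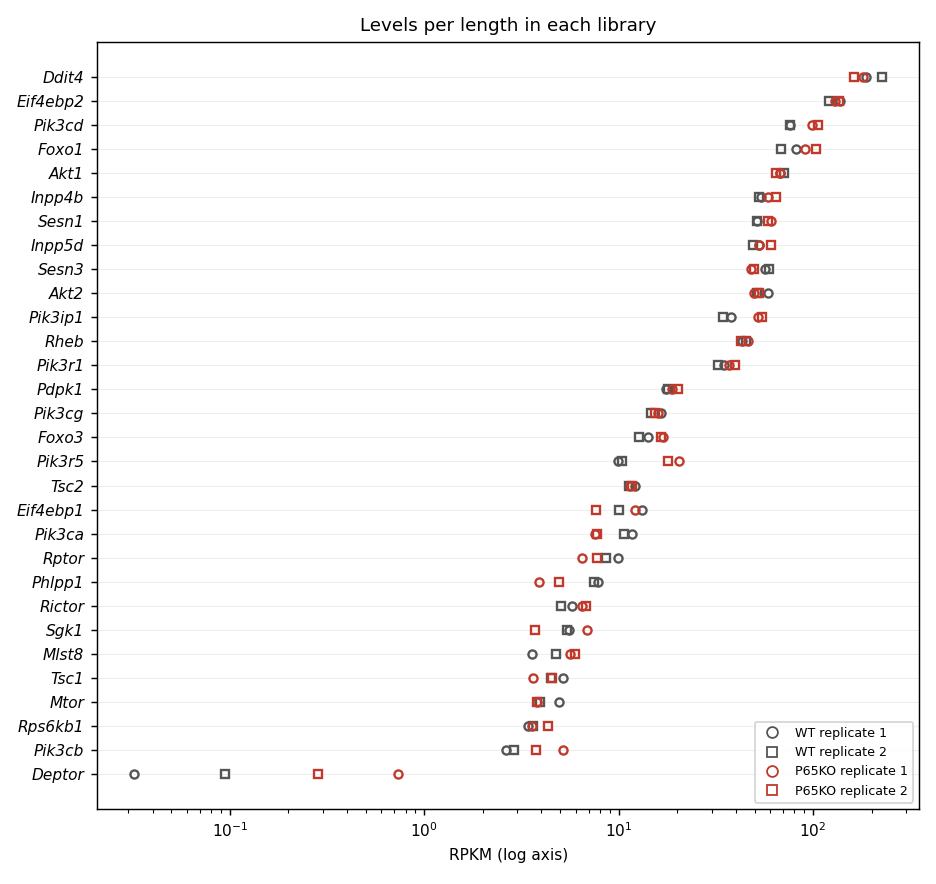
Level of each of the 30 members in each library, in RPKM on a log axis, with WT in grey and P65KO in red. The genes span from Ddit4 at a mean of 189 RPKM to Deptor, whose highest library reached 0.728 RPKM.

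The upstream windows of 4 members that passed are shown because RelA binds DNA, so a reader can see whether its motif stands next to genes that moved. They are the 2 higher and the 2 lower genes with the smallest adjusted p among those with 1 listed start and at least 100 bases free of annotated exons. The RefSeq table of build GRCm38.p6 held 43 windows for 28 of the 30 members. Each sequence runs 5′ to 3′ toward the start of the gene and stops before the first base of an exon annotated by GENCODE M21. Capitals mark matches on either strand to GGGNNNNNCC, a loose form of the kB motif in which N may be any base. Stricter forms of the motif were not searched.
Pik3r5 (chr11:68431875-68432120, plus strand): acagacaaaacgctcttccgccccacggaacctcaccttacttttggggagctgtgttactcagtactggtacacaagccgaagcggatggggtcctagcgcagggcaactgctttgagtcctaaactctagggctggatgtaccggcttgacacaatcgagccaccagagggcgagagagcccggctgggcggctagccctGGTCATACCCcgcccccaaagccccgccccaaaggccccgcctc
Foxo1 (chr3:52268087-52268335, plus strand): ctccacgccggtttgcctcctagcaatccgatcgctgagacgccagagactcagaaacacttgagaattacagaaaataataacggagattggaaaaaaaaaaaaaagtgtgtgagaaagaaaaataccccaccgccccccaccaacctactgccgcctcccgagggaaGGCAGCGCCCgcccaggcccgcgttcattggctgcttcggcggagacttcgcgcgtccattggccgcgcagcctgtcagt
Phlpp1 (chr1:106171619-106171751, plus strand): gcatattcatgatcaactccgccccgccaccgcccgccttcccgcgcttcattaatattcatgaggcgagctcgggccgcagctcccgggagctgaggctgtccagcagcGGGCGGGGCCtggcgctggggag
Pik3ca (chr3:32396815-32397064, plus strand): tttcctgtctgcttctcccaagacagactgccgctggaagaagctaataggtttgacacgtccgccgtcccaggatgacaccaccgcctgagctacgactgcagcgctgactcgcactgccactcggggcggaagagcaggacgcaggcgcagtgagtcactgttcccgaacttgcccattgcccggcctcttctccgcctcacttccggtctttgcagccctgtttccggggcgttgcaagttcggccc
The windows of Pik3r5, Foxo1 and Phlpp1 held 1 match each, and that of Pik3ca held none. The Phlpp1 match, on the plus strand, contains the GC box GGGCGG, another common promoter element. The matches of Pik3r5 and Foxo1 are on the minus strand, and each overlaps the edge of a GC box on that same strand. The loose kB pattern was found in 45.8% of 32851 windows of 250 bases over all genes and in 22 of the 43 windows of members, or 51.2%. The GC box was in 32.7% of all windows and likewise in 22 of the 43, or 51.2%. The FOXO core motif TGTTTAC, searched on both strands, was in 3.17% of all windows and in 2 of the 43, which belong to Akt1 and Pik3cg. A match describes letters only and does not show binding.

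Positions of the 8 genes that passed are on build GRCm38, as RefSeq gives the whole gene. Among the catalytic subunits, the leukocyte-enriched p110-delta gene rose and the ubiquitous p110-alpha gene fell. Pik3cd (Entrez 18707, chr4:149649168-149702566), which encodes p110-delta, the isoform that signals below the antigen receptor and CD28 in T cells, had 402 and 407 CPM in WT and 539 and 586 CPM in P65KO. Both P65KO libraries lay above both WT libraries, and the gene was 1.39-fold higher (log2 0.48, SE 0.09; adjusted p = 0.00241 by edgeR quasi-likelihood with the Benjamini-Hochberg method). Pik3ca (Entrez 18706, chr3:32397065-32466112), which encodes p110-alpha, had 102 and 94.0 CPM in WT and 67.9 and 70.9 CPM in P65KO. It was 1.41-fold lower with no overlap of the groups (log2 -0.49, SE 0.10; edgeR quasi-likelihood, adjusted p = 0.00419). Without WT replicate 1 the Pik3ca call ended (edgeR quasi-likelihood, adjusted p = 0.0689). Pik3cb (Entrez 74769, chr9:99038402-99140235), the p110-beta gene, was scarce, with 12.4 and 13.8 CPM in WT and 25.4 and 18.6 CPM in P65KO. It passed at 1.68-fold higher (log2 0.75, SE 0.21; edgeR quasi-likelihood, adjusted p = 0.0213), and its higher P65KO library was replicate 1, the one richest in myeloid transcripts. Without that library the log2 difference of 0.51 missed the threshold (edgeR quasi-likelihood, adjusted p = 0.167), and without WT replicate 1 or WT replicate 2 the adjusted p was 0.204 or 0.134. Pik3cg, the p110-gamma gene that works with G protein-coupled receptors, stood at 112 and 101 CPM in WT and 112 and 109 CPM in P65KO. Its groups overlapped, and the 95% interval of its fold ran from 0.895 to 1.20.

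**Figure D3:**
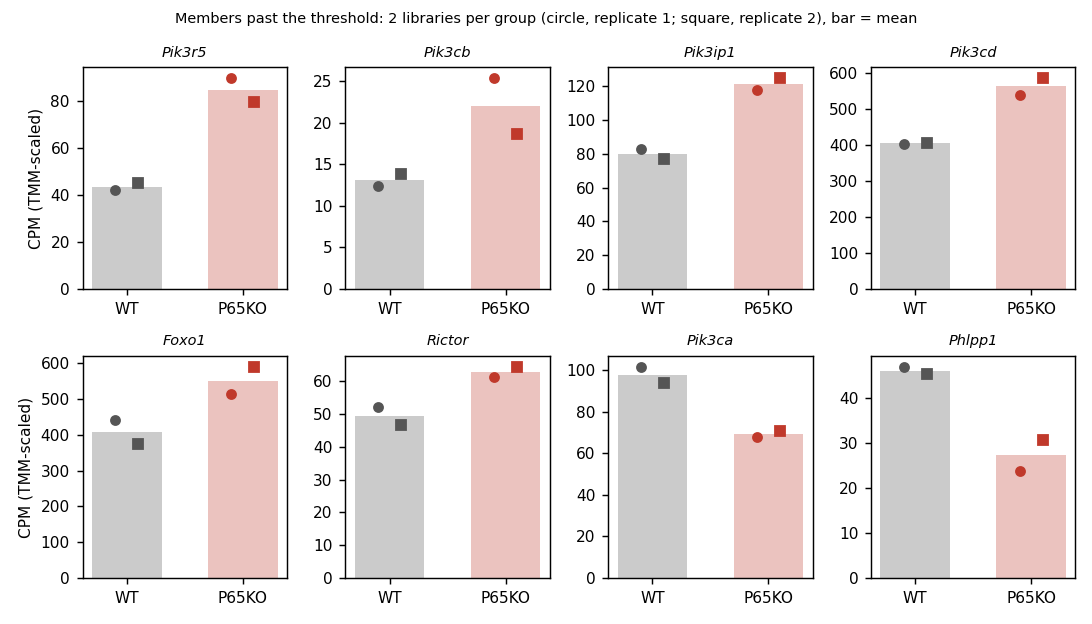
The 8 members past the threshold, in TMM-scaled CPM on axes that start at 0, with each library as a point (circle, replicate 1; square, replicate 2) and the group mean as a bar. In each panel the 2 P65KO points lie on one side of the 2 WT points, and the P65KO points of Pik3cb are the most uneven, at 25.4 and 18.6 CPM.

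Within a library, ratios between genes do not depend on the scaling of that library. Pik3cd supplied 71.2% and 72.9% of the summed RPKM of the 4 catalytic genes in WT and 77.5% and 79.8% in P65KO. The share of Pik3ca was 10.9% and 10.2% in WT and 5.92% and 5.85% in P65KO. The ratio of Pik3cd to Pik3ca was 6.52 and 7.13 in WT and 13.1 and 13.6 in P65KO. These ratios were chosen after the single genes had been seen and are given with no test.

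**Figure D4:**
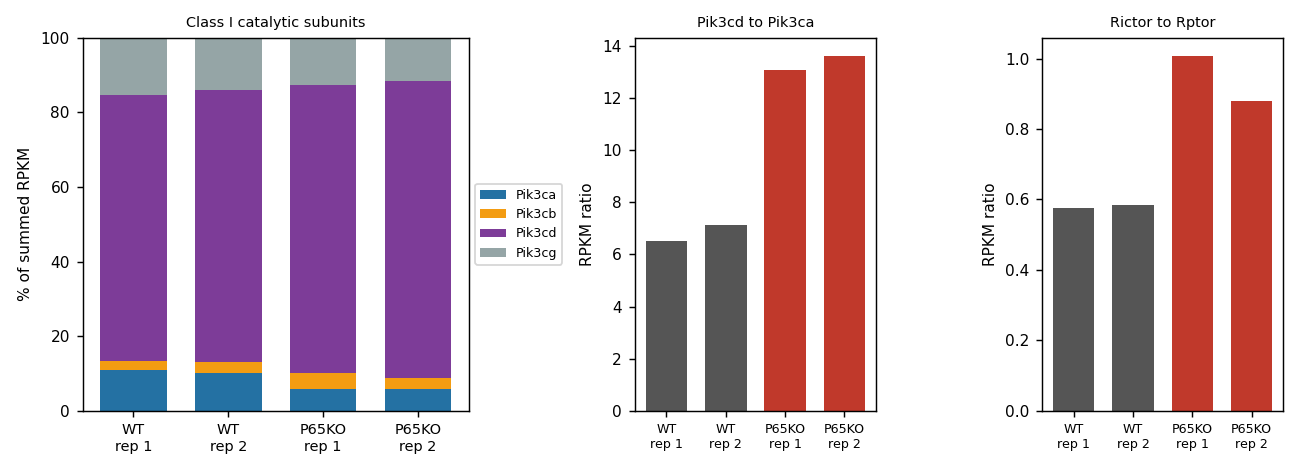
Left, share of each class I catalytic gene in their summed RPKM, per library. Middle and right, RPKM ratios of Pik3cd to Pik3ca and of Rictor to Rptor, with WT in grey and P65KO in red: the first is 13.1 and 13.6 in P65KO against 6.52 and 7.13 in WT.

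Of the regulatory subunits, Pik3r5 (Entrez 320207, chr11:68432125-68497849) showed the largest difference of all members. It encodes p101, the adaptor that links p110-gamma to G protein beta-gamma subunits. It had 42.1 and 45.0 CPM in WT and 89.8 and 79.7 CPM in P65KO, so that each P65KO library stood well above both WT libraries. The gene was 1.95-fold higher (log2 0.96, SE 0.11; edgeR quasi-likelihood, adjusted p = 7.38e-05). Myeloid transcripts were also higher in P65KO. Without P65KO replicate 1, where they were most abundant, the log2 difference of Pik3r5 was 0.87. P65KO replicate 2 also held more of them than WT, at a summed 1126 CPM against 885 and 1000.2. Their part in the Pik3r5 difference was not tested. Pik3r1, which encodes the p85-alpha family that stabilises and restrains p110-alpha, p110-beta and p110-delta, had 251 and 238 CPM in WT and 277 and 301 CPM in P65KO. Its groups did not overlap, but it did not pass (log2 0.24, SE 0.09; edgeR quasi-likelihood, adjusted p = 0.0833).

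The antagonists went in both directions. Pik3ip1 (Entrez 216505, chr11:3319241-3342971), a transmembrane protein that binds the p110 subunit and dampens it, had 83.1 and 76.8 CPM in WT and 118 and 125 CPM in P65KO. It was 1.52-fold higher (log2 0.60, SE 0.10; edgeR quasi-likelihood, adjusted p = 9.45e-04). Phlpp1 (Entrez 98432, chr1:106171869-106394245), a phosphatase that removes an activating phosphate from AKT, had 46.9 and 45.2 CPM in WT and 23.8 and 30.6 CPM in P65KO. It was 1.69-fold lower (log2 -0.76, SE 0.15; edgeR quasi-likelihood, adjusted p = 0.00289), with both P65KO libraries below WT. Leaving out WT replicate 1 or WT replicate 2 ended the Phlpp1 call (edgeR quasi-likelihood, adjusted p of 0.0788 and 0.0618). The lipid phosphatase genes Inpp5d (SHIP1) and Inpp4b were abundant and did not pass. Inpp5d stood at 255 and 240 CPM in WT and 263 and 308 CPM in P65KO, and Inpp4b at 217 and 215 against 245 and 271 CPM. Their 95% intervals reached from a fold of 0.992 to 1.34 and from 1.04 to 1.37.

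None of the 4 kinases directly downstream of PI3K passed, and the intervals bound most of them closely. Akt1 had 178 and 190 CPM in WT and 183 and 177 CPM in P65KO, and Akt2 had 185 and 166 CPM against 162 and 174 CPM. For both AKT genes the groups overlapped, and the 95% intervals of the fold were 0.853 to 1.12 and 0.828 to 1.11. Pdpk1, which encodes PDK1, the kinase that activates AKT and SGK, had 123 and 127 CPM in WT and 136 and 147 CPM in P65KO (interval of the fold 0.983 to 1.31). Sgk1, an AKT relative driven by mTOR complex 2, was uneven in P65KO, at 28.7 and 15.7 CPM, against 22.6 and 22.4 CPM in WT. Its log2 difference was -0.51 without P65KO replicate 1 and 0.35 without P65KO replicate 2, so no direction can be given for it.

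Of the TSC complex, which inactivates Rheb, and of Rheb, the small GTPase that switches on mTOR complex 1, no gene passed. Tsc1 had 38.6 and 34.2 CPM in WT and 28.0 and 35.4 CPM in P65KO, Tsc2 72.9 and 68.6 against 70.8 and 73.7 CPM, and Rheb 63.8 and 68.2 against 71.2 and 66.4 CPM. The groups overlapped for all 3 genes. The 95% interval of the fold was 0.692 to 1.10 for Tsc1, 0.874 to 1.19 for Tsc2 and 0.889 to 1.22 for Rheb.

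Of the mTOR complex subunits, 1 of 4 tested passed, and by a narrow margin. Rictor (Entrez 78757, chr15:6708349-6800401), the defining subunit of mTOR complex 2, had 52.1 and 46.7 CPM in WT and 61.3 and 64.4 CPM in P65KO. It passed at 1.27-fold higher (log2 0.35, SE 0.11; edgeR quasi-likelihood, adjusted p = 0.0463), the smallest difference among the members that passed, and it passed in 1 of 10 other settings. Leaving out any 1 of the 4 libraries ended the call (edgeR quasi-likelihood, adjusted p of 0.104, 0.238, 0.109 and 0.215 without WT 1, WT 2, P65KO 1 and P65KO 2). Rptor, the defining subunit of mTOR complex 1, had 67.3 and 59.4 CPM in WT and 45.2 and 54.5 CPM in P65KO. It did not pass (log2 -0.35, SE 0.13; edgeR quasi-likelihood, adjusted p = 0.0718), although both P65KO libraries lay below WT. The RPKM ratio of Rictor to Rptor was 0.576 and 0.585 in WT and 1.01 and 0.880 in P65KO, a ratio likewise chosen after its genes had been seen and not tested. Mtor, the shared kinase, had 41.5 and 33.4 CPM in WT and 33.1 and 33.2 CPM in P65KO, with an interval of the fold from 0.712 to 1.10. Mlst8, a subunit of both complexes, had 11.7 and 15.7 CPM in WT and 19.0 and 20.4 CPM in P65KO and did not pass (log2 0.52, SE 0.20; edgeR quasi-likelihood, adjusted p = 0.0914). Of the annotated exon bases of Mlst8, 22.5% lie over exons of Bricd5 on the opposite strand, and since the strand setting of the counting is not known, its value is uncertain.

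The substrates of mTOR complex 1 did not pass. Eif4ebp2, which encodes a repressor of cap-dependent translation, was the second most abundant member per length and had 241 and 214 CPM in WT and 235 and 248 CPM in P65KO. Its paralogue Eif4ebp1 was scarce, at 12.6 and 9.68 CPM in WT and 11.9 and 7.53 CPM in P65KO, and its interval of the fold, 0.573 to 1.33, was wide. By RPKM, Eif4ebp2 exceeded Eif4ebp1 in every library, by 10.4 to 17.8 times. Rps6kb1, the S6 kinase gene, had 26.3 and 28.2 CPM in WT and 28.4 and 34.8 CPM in P65KO (interval of the fold 0.920 to 1.46).

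The inducible inhibitors of mTOR complex 1 gave no uniform picture, and none passed. Sesn1, a leucine-responsive sestrin, had 168 and 171 CPM in WT and 206 and 201 CPM in P65KO, with tight replicates on either side of the gap (log2 0.26, SE 0.09; edgeR quasi-likelihood, adjusted p = 0.0570). Sesn3, a sestrin known as a FOXO target, had 119 and 127 CPM in WT and 105 and 109 CPM in P65KO (log2 -0.20, SE 0.09; edgeR quasi-likelihood, adjusted p = 0.160). The RPKM ratio of Sesn1 to Sesn3 was 0.913 and 0.868 in WT and 1.26 and 1.19 in P65KO, given with no test for the reason above. Ddit4 (REDD1), a stress gene that acts through TSC, varied between WT libraries, at 309 and 378 CPM, and had 308 and 279 CPM in P65KO (edgeR quasi-likelihood, adjusted p = 0.170).

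Foxo1 (Entrez 56458, chr3:52268337-52350109), the main FOXO factor of T cells and a guardian of Treg identity, had 442 and 375 CPM in WT and 514 and 591 CPM in P65KO. Both P65KO libraries stood above WT, and the gene was 1.35-fold higher (log2 0.44, SE 0.11; edgeR quasi-likelihood, adjusted p = 0.0121). The call ended without WT replicate 2 or without P65KO replicate 2 (edgeR quasi-likelihood, adjusted p of 0.155 and 0.140). An annotated antisense transcript, Gm20402, covers 7.78% of the exon bases of Foxo1, and with the strand setting of the counting unknown, the value of Foxo1 is uncertain. Foxo3 had 39.7 and 36.4 CPM in WT and 49.6 and 48.5 CPM in P65KO and narrowly did not pass (log2 0.37, SE 0.12; edgeR quasi-likelihood, adjusted p = 0.0507). By RPKM, Foxo1 exceeded Foxo3 by 5.35 to 6.32 times in the 4 libraries.

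Genes known as FOXO targets went in both directions. Of 18 genes listed, all tested, 4 rose, 4 fell and 10 did not pass, so that 44.4% passed against 20.7% of all genes. The median log2 difference was -0.01 against 0.00 over all genes. Ccr7, the chemokine receptor for entry into lymph nodes, was 1.89-fold higher, from 396 and 400.0 to 747 and 759 CPM. S1pr1, the receptor for exit from lymphoid organs, rose 1.87-fold from 678 and 607 to 1109 and 1295 CPM. Klf2, a transcription factor that controls both homing and exit, rose 1.71-fold from 373 and 338 to 608 and 605 CPM. In all 3 genes both P65KO libraries lay above both WT libraries. Among those that fell, Il7r, the interleukin-7 receptor and itself a gene of naive T cells, went from 184 and 200.3 to 106 and 97.9 CPM, 1.89-fold lower. Bcl6, a transcriptional repressor of follicular T cells, was 1.96-fold lower, from 57.1 and 51.2 to 28.7 and 26.6 CPM. Rbl2, a pocket protein of the cell cycle, was 1.68-fold lower, and Cited2, a transcriptional co-regulator, 1.24-fold lower. The call of Cited2 ended with any 1 library left out (edgeR quasi-likelihood, adjusted p of 0.134 to 0.199). Cdkn1b, the cell cycle inhibitor p27 and a textbook FOXO target, had 190.3 and 219 CPM in WT and 203 and 221 CPM in P65KO and did not pass. Ccr7 and Klf2 also stand in the list of naive and central markers, 10 of 10 of which rose in the same libraries.

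**Figure D5:**
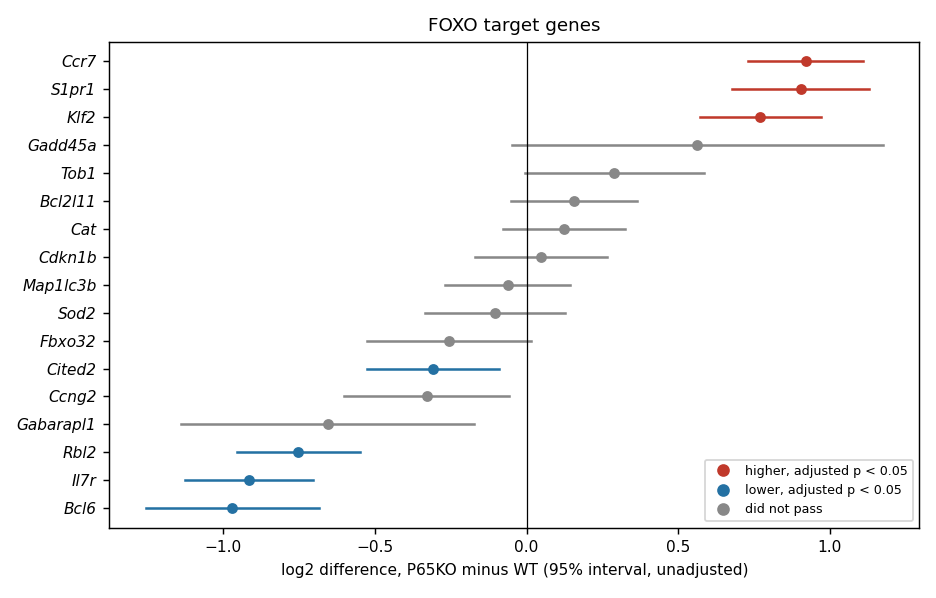
Log2 difference, P65KO minus WT, of 17 of the FOXO target genes with unadjusted 95% intervals, ordered by size. The 3 in red at the top (Ccr7, S1pr1, Klf2) and the 4 in blue (Cited2, Rbl2, Il7r, Bcl6) passed the threshold.

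Other genes of the pathway, 85 by symbol and 76 of them tested, gave 9 higher, 6 lower and 61 that did not pass, a share of 19.7% against 20.7% of all genes. Sgk3, an AKT relative that binds endosomal phosphoinositide, had the largest rise, from 22.1 and 25.4 CPM to 68.1 and 60.2 CPM (2.70-fold; edgeR quasi-likelihood, adjusted p = 1.10e-05). Eef2k, the kinase that slows translation elongation, rose 2.05-fold from 14.1 and 13.1 to 27.1 and 28.8 CPM. Pik3c2b, a class II PI3K gene, rose 2.46-fold at low level, from 3.69 and 3.01 to 8.82 and 7.75 CPM, and Tfeb, a regulator of lysosomal genes, 1.41-fold. The call of Pik3c2b ended without WT replicate 1 or WT replicate 2, and that of Tfeb without any 1 of the 4 libraries (edgeR quasi-likelihood, adjusted p of up to 0.135 and 0.193). Of 11 receptors and adaptors upstream of PI3K, 2 rose, 2 fell and 7 did not pass. Il2ra, a subunit of the interleukin-2 receptor, rose 1.34-fold from 552 and 539 to 665 and 801 CPM, and Trat1, an adaptor of the antigen receptor, rose 1.29-fold from 69.5 and 70.4 to 90.9 and 89.5 CPM. Il2ra lost its call when either WT library or P65KO replicate 2 was left out, and Trat1 lost it without any 1 of the 4 libraries (edgeR quasi-likelihood, adjusted p of up to 0.168 and 0.112). Icos, a costimulatory receptor that binds PI3K directly, fell 4.70-fold from 296 and 342 to 72.3 and 63.6 CPM, and Igf1r, the receptor of insulin-like growth factor 1, fell 2.10-fold from 113 and 99.4 to 47.0 and 54.0 CPM. The phosphatase genes Inppl1 (SHIP2) and Phlpp2, paralogues of the members Inpp5d and Phlpp1, fell 2.44-fold and 1.97-fold. Without WT replicate 1 the calls of both ended, and that of Phlpp2 also without WT replicate 2 or P65KO replicate 2 (edgeR quasi-likelihood, adjusted p of 0.0562 for Inppl1 and up to 0.195 for Phlpp2). Icos also belongs to the effector Treg markers, 10 of 10 of which fell. Of 10 other genes of mTOR complex 1 output, Eef2k and Tfeb among them, 4 rose, 1 fell and 5 did not pass. That is 50% called, against 20.7% of all genes. In the subset of mTOR complex and amino acid sensing genes, 0 of 26 passed with edgeR. Of these 26, 8, or 30.8%, had an unadjusted edgeR p under 0.05, against 32.6% of all genes tested.

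Of 10 nutrient and growth genes linked to mTOR complex 1, 2 rose, 1 fell and 7 did not pass, or 30% called, against 20.7% of all genes. An unadjusted edgeR p under 0.05 was found for 50% of the 10, against 32.6% of all genes tested. Groups did not overlap for 6 genes above and 3 below WT, where 60.5% of all genes did not overlap. Slc7a5, the large neutral amino acid transporter, rose 1.55-fold from 69.0 and 73.6 to 99.5 and 121 CPM, and Myc rose 1.45-fold from 95.9 and 103 to 133 and 156 CPM. Neither held without WT replicate 1 (edgeR quasi-likelihood, adjusted p of 0.0750 and 0.0808), and Slc7a5 also missed the threshold without WT replicate 2 (edgeR quasi-likelihood, adjusted p = 0.0502). Hif1a, the oxygen-regulated factor that drives glycolysis, fell 2.17-fold from 521 and 519 to 236 and 245 CPM. The glucose transporter gene Slc2a1, the transferrin receptor gene Tfrc and the hexokinase gene Hk2 did not pass.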

How the data were processed

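Raw counts by Entrez gene were deposited by the authors for 4 libraries, with log2 RPKM values beside them per the file headers. An RNeasy Plus Mini kit and a TruSeq RNA kit were used, per the labels' protocols. Subread, featureCounts and limma are named, with GRCm38 (mm10), per the submitters' processing notes; their versions, the annotation and the strand setting were not given in the sources used here. The log2 RPKM values gave 1 gene length in all 4 libraries within 0.01 for 27179 of 27179 genes when read as the count plus 0.5 over length and library total, so they hold the same counts without scaling.

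Low counts were removed with filterByExpr, leaving 11172 genes. After TMM scaling, edgeR 4.0.16 (R 4.3.3) gave a two-sided quasi-likelihood F test for P65KO against WT. Benjamini-Hochberg adjustment ran over all genes tested, and the threshold was 0.05. CPM values are TMM-scaled, and 3 counts correspond to 0.646 to 0.664 CPM. The standard error is the log2 difference divided by the square root of F. Simulated counts for 11003 genes, 200 of them changed, gave 152 calls, 3 of them false. The share recovered was 50.7% at 1.5-fold, 83.3% at 2-fold and 96.8% at 4-fold. In the data 20.7% of genes passed, more than the share changed in the simulation, so these recoveries need not hold there. No library repeats another: chi-square over its degrees of freedom was 3.61 between the WT libraries and 3.97 between the P65KO libraries, above the value of 1 that sampling noise gives.

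DESeq2 1.42.0, limma-voom (limma 3.58.1), RLE factors, library totals, no filter, a replicate block and leaving out each library were the other settings. All 30 members are named; other pathway genes are named by a rule of up to 4 in each direction with the largest differences, apart from Cdkn1b, Il2ra, Trat1 and the genes given as not passing, which were chosen after their values were seen. One gene that the rule names is not reported here. Members and lists were chosen with earlier results of these data known. Coordinates and promoter windows are from RefSeq GRCm38.p6, and exon overlaps from GENCODE M21 of the same build.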

Additional observations from a re-analysis of the deposited data

How the results depend on the processing

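Over the 29 members tested and 10 settings, 259 of 290 single-gene results kept both their sign and their side of the threshold, 21 lost a call and 2 gained one. A further 8 results, from Pik3cg, Akt1, Akt2, Sgk1, Tsc2 and Eif4ebp1, changed sign while staying uncalled. Pik3r5, Pik3ip1 and Pik3cd passed in 10 of 10 settings, Pik3ca in 9, Phlpp1 and Foxo1 in 7, Pik3cb in 5 and Rictor in 1. No called gene changed direction. With no filter on low counts, 771 of all genes, 3 members higher and 1 lower passed, as did 2 other pathway genes higher and 3 lower; there Pik3cb, Phlpp1, Rictor and Foxo1 lost their calls. DESeq2 called 1318 genes and 4 other pathway genes higher, and did not call Pik3cb or Rictor (DESeq2, adjusted p of 0.158 and 0.308). RLE factors added Foxo3 and library totals added Rptor (edgeR quasi-likelihood, adjusted p of 0.0467 and 0.0432). Leaving out 1 library gave 916 to 1676 genes, 3 to 4 members higher and 0 to 2 lower, and 2 to 7 other pathway genes higher and 3 to 6 lower; the lowest of these counts came without a WT library. The causes were not tested.

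Replicate numbers are shared between groups, but no label says that they pair libraries. With the replicate block, 2319 genes passed, with 5 members higher and 2 lower. Same-numbered libraries deviated with a correlation of -0.14, and a crossed replicate block, added after seeing the data, gave 2973 genes, 10 members higher and 4 lower, and 11 other pathway genes higher and 11 lower. At this depth Deptor could not be tested.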
